A study of Mus musculus with 21 samples.

Results

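The lungs described here came from A/J mice that had all inhaled hog dust extract (HDE), and the comparison is between those that had also received the tobacco nitrosamine NNK (HDE + NNK) and those that had not (HDE only). The members were the 9 libraries that the raw count table heads as HDE, of 21 libraries in all, 5 HDE + NNK and 4 HDE only, each from its own mouse. A/J is an inbred strain that readily develops lung adenomas. Male and female mice, 8 to 12 weeks old when received, were given 50 µL of 12.5% HDE by the nose 3 times a week for 24 weeks. HDE + NNK mice received 100 mg/kg of NNK into the peritoneum once, at the start of week 4, and HDE only mice received buffer instead. The methods add that control mice of the later experiment also received the vehicle of a lipid mediator by vein. Lungs had been lavaged, and tumors had been counted and cut out of the left lung before part of it was taken for RNA. The libraries therefore hold lung tissue left after any visible tumors were cut out, and cells of the airspaces may be partly missing. The paper reports tumors in every HDE + NNK mouse of the study but in only a minority of HDE only mice.

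NNK is activated by cytochrome P450 enzymes of the lung to intermediates that alkylate DNA, and adenomas of the lung follow in this strain. HDE carries bacterial wall components, proteases and other microbial products, and lungs that inhale it fill with neutrophils, macrophages and lymphoid aggregates. The comparison asks which immune and cancer transcripts differed in dust-inflamed lung after a carcinogen given months before, in tissue without visible tumors. In bulk lung RNA, fewer cells of a type and less RNA per cell cannot be told apart.

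Expression was measured with the nCounter mouse PanCancer Immune panel, in which a pair of probes binds each transcript and color-coded molecules are counted without amplification. Each library was scaled to 4 reference genes (Eef1g, Oaz1, Rpl19, Sdha) through their geometric mean, and the resulting values are called normalized counts. Of the 770 genes of the panel, 388 reached a mean of 87 raw counts over the 21 libraries and were tested, 4 served for scaling, and 378 lay below the minimum. Labelled lung tissue was borne out as far as the panel allows. The epithelial genes Epcam and Cdh1, the lung chemokine gene Cxcl15 and the endothelial genes Pecam1 and Cdh5 were above background in 9 of 9 libraries, from 185 raw counts for the lowest Epcam to 35290 for the highest Cxcl15.

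Library totals ran from 319933 to 452430 counts in HDE + NNK and from 180995 to 529829 in HDE only, so the lowest depths were in HDE only. The geometric mean of the 4 scaling genes was 1113 ± 173 (SD, n = 5) in HDE + NNK and 893 ± 438 (SD, n = 4) in HDE only, a difference of 0.42 on the log2 scale that did not pass an exact permutation test (two-sided p = 0.24). Without the deepest HDE only library (run 2 lane 11) that difference was 0.72 and passed (exact permutation p = 0.018). Libraries were counted in 2 runs, whose column headers bear dates of different years. The study pooled separate experiments, and no label ties a library to one, so run and experiment cannot be told apart here. In run 1 were 4 libraries of HDE + NNK and 2 of HDE only, and in run 2 were 1 and 2. Sex is given with another table, with 3 females and 2 males in HDE + NNK and 1 female and 3 males in HDE only, and was not tied to single libraries of the raw table, whose columns do not name it.

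More genes differed between the runs than between the NNK groups. In a fit of the 9 HDE-exposed libraries with both as terms, 2 of 388 genes (0.515%) were higher and 42 (10.8%) were lower in run 2 than in run 1 at an adjusted p under 0.05 (edgeR), and for NNK the count was 0, with 5 genes at an unadjusted p under 0.05. A fit with both run and sex as terms was not made. The first principal component of the 9 libraries took 44.2% of the variance and separated the runs. Run 1 scores lay between −0.32 and 7.81 and run 2 scores between −6.80 and −5.28. Fos, Trp53, Col4a1, Thbs1 and Myc weighed most on the run 1 side and Chil3, H2-Ab1, Lilra5 and Clec7a on the run 2 side. The second component took 30.0% and ran from the macrophage genes Trem2, Lgals3 and Msr1 to the mesothelial gene Msln and the endothelial genes Lyve1, Tek and Eng. At its endothelial end stood 1 library of each group, HDE + NNK run 1 lane 11 (−6.21) and HDE only run 2 lane 12 (−8.13), apart from the other 7, which lay between −0.36 and 4.68.

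Neither component separated the NNK groups. Mean scores on component 1 were 0.79 ± 4.72 (SD) in HDE + NNK and −0.98 ± 6.51 in HDE only, a difference of 1.77 (exact permutation p = 0.66). On component 2 they were 0.45 ± 4.25 and −0.56 ± 5.07, a difference of 1.01 (exact permutation p = 0.68). With 5 libraries against 4 the smallest p that such a test can give is 0.0079. The test took no account of the run. Component 1 separated the runs, each of which held both groups, so that p was out of reach there.

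**Figure D1:**
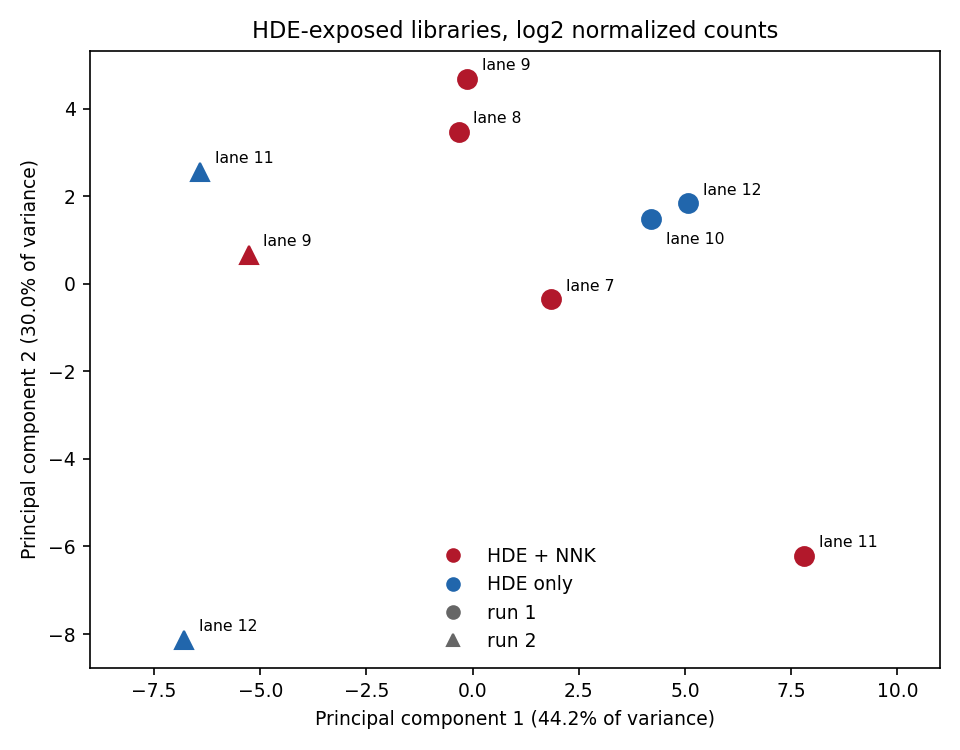
Scores of the 9 HDE-exposed libraries on principal components 1 (x axis, 44.2% of the variance) and 2 (y axis, 30.0%) of log2 normalized counts, in arbitrary units. Color marks the NNK group, shape the run, and text the cartridge lane. The 3 triangles of run 2 lie left of all 6 circles of run 1, and red and blue points are interspersed on both axes.

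In tests of single genes, 0 of 388 (0%) differed between HDE + NNK and HDE only at an adjusted p under 0.05 (edgeR quasi-likelihood, Benjamini-Hochberg), and the smallest adjusted p was 0.996. At an unadjusted p under 0.05, 5 genes (1.29%) were higher with NNK and 3 (0.773%) were lower, 8 in all (2.06%). The 5 were Marco, Cd3g, Itga6, Lbp and C1ra, and the 3 were H2-Ab1, Cxcl16 and Irak4. In a single set of counts simulated without any group difference, 18 of 388 genes had an unadjusted p under 0.05 in the same fit. That simulation drew each gene independently and held no run effect, so it gives no chance level for the 8 here. Under other scalings the split of higher and lower genes at that threshold was 9 and 3 (TMM), 4 and 5 (all housekeeping genes), 9 and 6 (DESeq2) and 3 and 0 (positive control probes), with 0 at an adjusted p under 0.05 each time. Scaling to the positive controls moved the median log2 fold change of all tested genes from 0.04 to 0.36, and differences are given here relative to the scaling genes.

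The intervals rest on a spread of each gene estimated over all 21 libraries, saline-exposed ones included. The median SD of log2 normalized counts was 0.34 within the HDE groups and 0.21 within the saline groups. The intervals may therefore be too narrow for the HDE-exposed libraries. The 95% interval of the log2 fold change had a median half-width of 0.40, which corresponds to 1.32-fold. It lay within 2-fold either way for 370 of the 388 genes, and within 1.5-fold for 255. Point estimates ran from −0.71 to 0.98, and from the 10th to the 90th percentile they spanned −0.14 to 0.23. Of the 388, 237 lay above and 151 below 0. That lean turned with the run as a term (181 above and 207 below), in run 1 alone (108 and 280) and without the pair that stood apart on component 2 (99 and 289), so the counts of genes above 0 given for the lists describe these libraries with runs and pair included. As a yardstick, the median absolute log2 fold change was 0.097 for NNK among HDE-exposed lungs and 0.30 for HDE only against saline only lungs, a comparison that shares its HDE only libraries with the former.

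**Figure D2:**
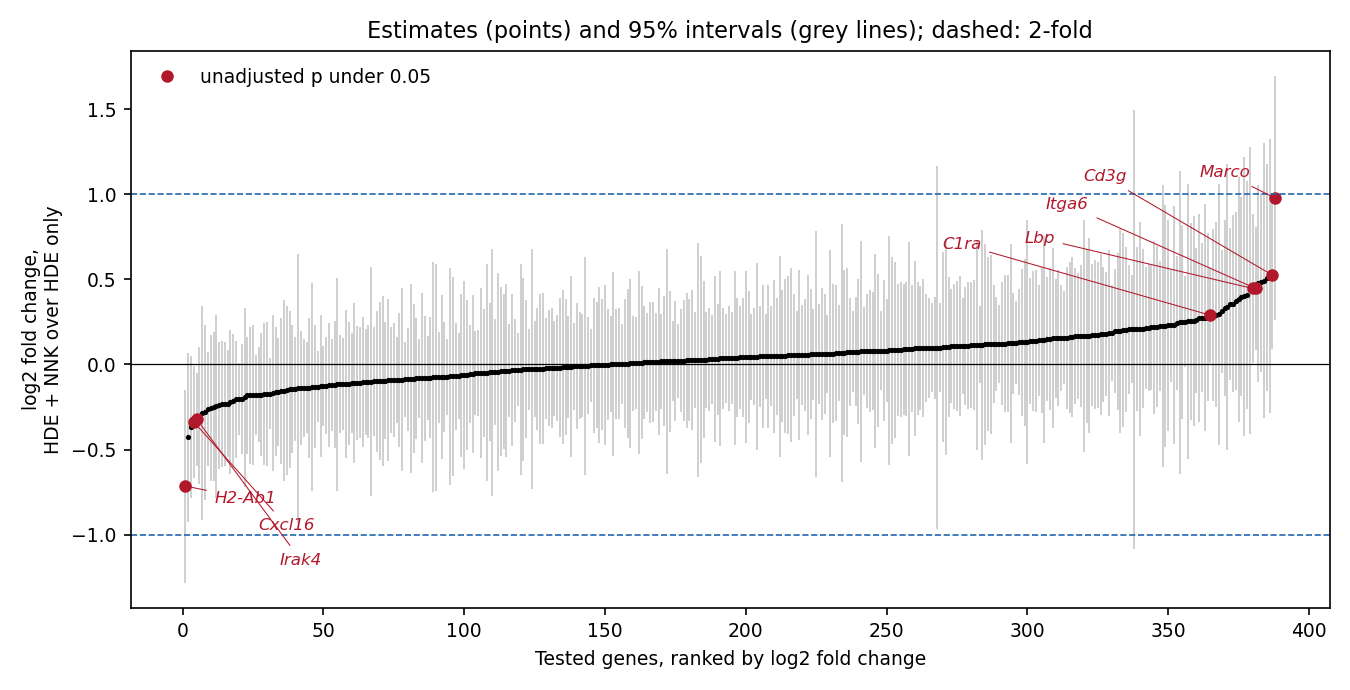
All 388 tested genes, ranked along the x axis by the log2 fold change of HDE + NNK over HDE only (y axis), with 95% intervals as grey lines. Red points mark the 8 genes with an unadjusted p under 0.05, and dashed lines mark 2-fold, which the intervals of 18 genes reach.

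The highest fold change was that of Marco, the scavenger receptor by which alveolar macrophages bind inhaled particles and bacteria. Its normalized counts were 166, 154, 136, 121 and 165 in the HDE + NNK libraries and 127, 85.5, 44.4 and 48.6 in the HDE only libraries. HDE + NNK was higher in mean, and only its run 1 lane 11 library fell below the highest HDE only library. The log2 fold change was 0.98 ± 0.35 (SE), with a 95% interval of 0.26 to 1.69 (edgeR unadjusted p = 0.0099). Both HDE only libraries of run 2 held the lowest values. Within run 1 the difference was 0.42 (unadjusted p = 0.25), and in run 2, with 1 library against 2, it was 1.80, so run 2 carried most of the size. With the run as a term it was 0.95 (unadjusted p = 0.014). Marco was also a dim gene, and its 36 raw counts in HDE only run 1 lane 12 did not exceed that library's background. On the deposited counts with values under 87 raised to that floor, as 3 of these 9 are, its log2 fold change was 0.15, and with sex as a term on those counts it was 0.067 (unadjusted p = 0.84).

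Other macrophage genes had smaller fold changes than Marco. Of 26 macrophage and monocyte genes on the panel 20 were tested, of which 14 had a log2 fold change above 0 and 6 below, with a median of 0.07 beside 0.04 for all tested genes. Marco alone of these had an unadjusted p under 0.05. Ccr2, the receptor that brings monocytes out of the marrow, had 541 ± 150 (SD, n = 5) normalized counts in HDE + NNK and 432 ± 150 (SD, n = 4) in HDE only, a log2 fold change of 0.33 ± 0.25 (SE). Within run 1 that of Ccr2 was 0.033 and in run 2 it was 0.44. Without the pair that stood apart on component 2 it was 0.00041. Chil3, a chitinase-like protein of alternatively activated mouse macrophages, was among the most abundant transcripts of the panel. It ranged from 7350 to 35055 in HDE + NNK and from 11677 to 43363 in HDE only. Trem2, a lipid-sensing receptor of macrophages, ranged from 141 to 359 and from 33.5 to 304, and its lowest value was in HDE only run 2 lane 12.

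Genes of antigen presentation by MHC class II included the lowest fold change among the tested genes. H2-Ab1, the beta chain of the mouse class II molecule I-A, had 117, 142, 130, 110 and 175 normalized counts in HDE + NNK and 120, 185, 264 and 312 in HDE only. It was lower in HDE + NNK in mean, and 3 of the 4 HDE only libraries exceeded all 5 HDE + NNK libraries. Its log2 fold change was −0.71 ± 0.27, with a 95% interval of −1.28 to −0.15 (edgeR unadjusted p = 0.016). The values were higher in run 2 than in run 1 in both groups. Within run 1 the log2 fold change was −0.26 (unadjusted p = 0.36), in run 2 it was −0.71, and with the run as a term −0.50 (unadjusted p = 0.041).

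The other class II genes had log2 fold changes above 0, several of them small beside their SEs. For the class II gene Cd74 the sign turned with the run as a term. Of the 7 tested genes, 6 had a log2 fold change above 0, with a median of 0.06. Cd74, the invariant chain that escorts class II molecules, had 11384 ± 1234 normalized counts in HDE + NNK and 11093 ± 1390 in HDE only, and H2-Aa, the alpha chain that pairs with the product of H2-Ab1, ranged from 5754 to 8950 and from 6296 to 9213. The highest H2-Ab1 value, 312, lay far below the lowest of H2-Aa. How well the panel reads H2-Ab1 in these mice was not tested. Ciita, the transactivator of class II genes, had a log2 fold change of 0.49 ± 0.39, opposite in sign to that of H2-Ab1. That sign turned on the floored counts (−0.14, and −0.045 with sex as a term), on which 5 of the 9 Ciita values are raised. Ciita ranged from 80.5 to 150 in HDE + NNK and from 45.2 to 152 in HDE only, and both of its values under 50 were HDE only libraries of run 2.

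**Figure D3:**
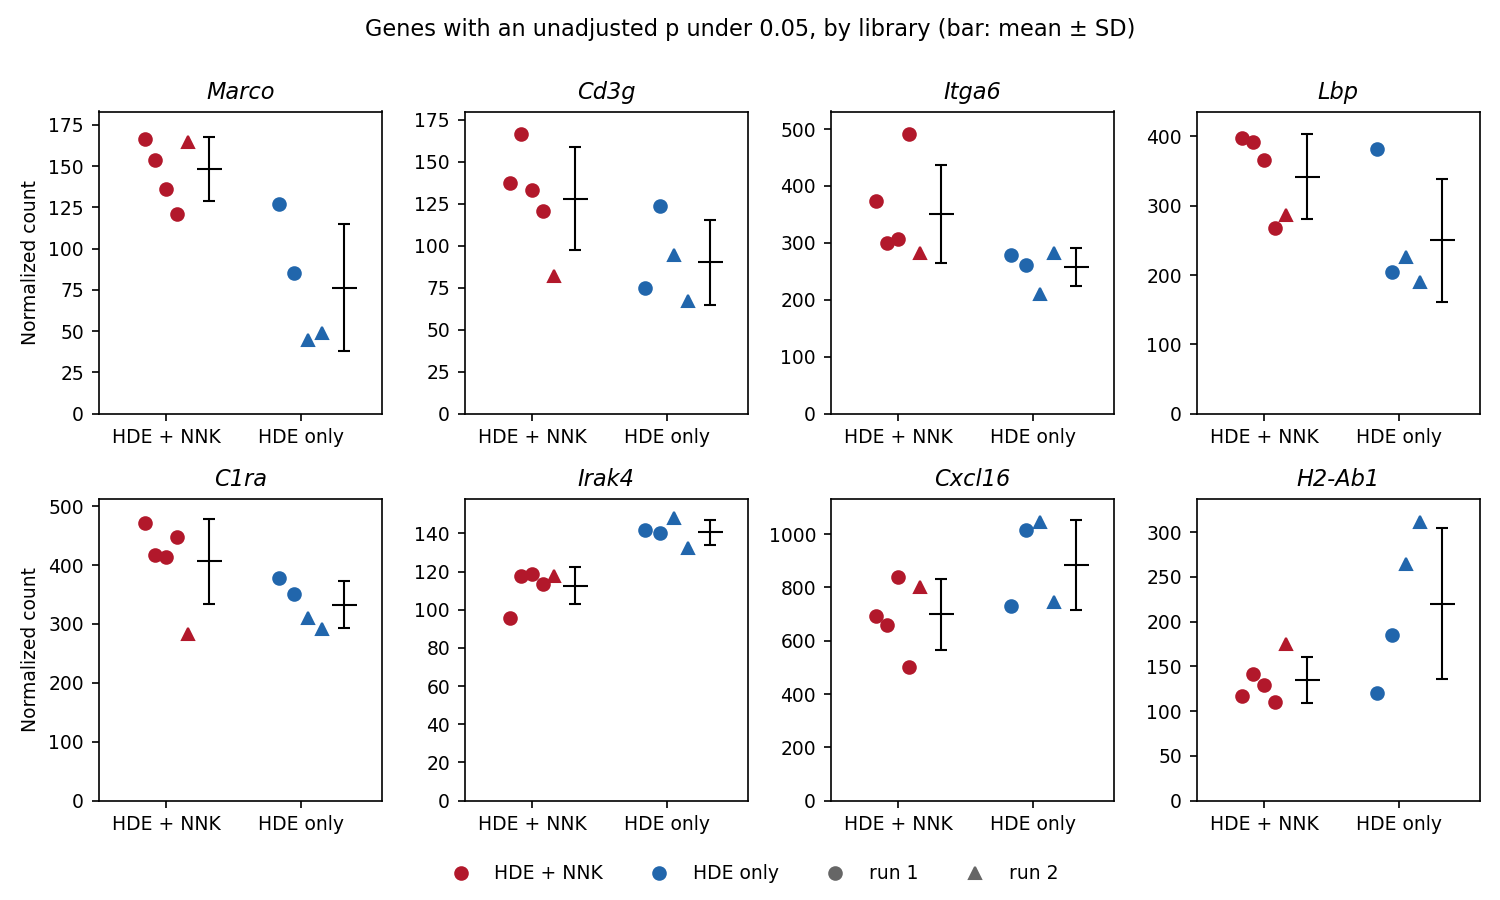
Normalized counts (y axes, each starting at 0) of the 8 genes with an unadjusted p under 0.05 in each HDE + NNK (red) and HDE only (blue) library. Circles are run 1, triangles run 2, and bars the mean ± SD. Irak4 alone of these shows no overlap of the groups, and the lowest Marco and highest H2-Ab1 values are HDE only triangles.

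Groups did not overlap for 0 of 388 genes in the higher direction (0%) and for 2 in the lower (0.515%), Irak4 and Jak2. Irak4, the kinase that relays signals of Toll-like and interleukin 1 receptors from Myd88, had 95.5, 118, 119, 114 and 118 normalized counts in HDE + NNK and 142, 140, 148 and 132 in HDE only. All 5 values of the former lay below all 4 of the latter, by 13.7 counts at the nearest. Its log2 fold change was −0.32 ± 0.13 (edgeR unadjusted p = 0.023). Within run 1 it was −0.34 (unadjusted p = 0.060). In run 2, with 1 library against 2, it was −0.25, so both runs gave a like value. On the floored counts, which raise 3 of its 9 values, it was −0.49. Among the raised values were those of HDE only run 1 lane 12 (59 raw counts) and run 2 lane 12 (79), the HDE-exposed pair with the lowest totals. Over 28 alternatives Irak4 ran from −0.51 to −0.0031. The log2 fold change of −0.32 corresponds to 0.80-fold, and its 95% interval to 0.66-fold to 0.97-fold.

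Jak2, the kinase behind many cytokine receptors, had 450, 480, 498, 454 and 465 normalized counts in HDE + NNK and 559, 584, 521 and 501 in HDE only. The nearest values of the groups were 498 and 501, so the gap was narrow. Its log2 fold change was −0.20 ± 0.10 (edgeR unadjusted p = 0.057). Of 8 tested genes of JAK-STAT signaling, 5 had a value above 0 and 0 had an unadjusted p under 0.05, with a median of 0.04. Stat6, the factor that interleukin 4 and interleukin 13 activate, had 458 ± 55 and 427 ± 62 normalized counts.

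Of 13 tested genes of Toll-like receptor signaling, 5 had a log2 fold change above 0 and 8 below, with a median of −0.09. Lbp and Irak4 were the 2 with an unadjusted p under 0.05, in opposite directions. Lbp encodes the protein that hands bacterial lipopolysaccharide to Cd14. It had 398, 392, 366, 267 and 286 normalized counts in HDE + NNK and 382, 204, 226 and 189 in HDE only. HDE + NNK was the higher in mean, and 1 HDE only library lay within its range. The log2 fold change was 0.45 ± 0.21 (edgeR unadjusted p = 0.047), and within run 1 it was 0.26 (unadjusted p = 0.30). Downstream, the NF-kB subunit gene Rel had −0.30 ± 0.19, and −0.61 to −0.0043 over 28 alternatives. The kinase gene Ikbkb had 0.23 ± 0.16, and 0 of 14 tested NF-kB genes had an unadjusted p under 0.05. Among interleukins and their receptors the same was 0 of 13. Il1r1, the signaling receptor of interleukin 1, had a log2 fold change of 0.36 ± 0.22, and its accessory chain Il1rap had −0.26 ± 0.16. The lowest Il1r1 values, 140 and 152, were those of the HDE only libraries of run 2. Over 29 alternatives Il1r1 ran from 0.067 to 0.70. Il1rap was dim, with raw counts between 42 and 134. Ptgs2, the inducible cyclooxygenase, had 215 ± 54 and 154 ± 66 normalized counts, a log2 fold change of 0.48 ± 0.25 (edgeR unadjusted p = 0.070).

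Among genes of lymphocytes, Cd3g, a chain of the T cell receptor complex, had 137, 166, 133, 121 and 81.7 normalized counts in HDE + NNK and 75.0, 123, 94.4 and 67.0 in HDE only. Of the HDE + NNK libraries 3 exceeded all HDE only libraries. The log2 fold change was 0.52 ± 0.21 (edgeR unadjusted p = 0.020), within run 1 it was 0.53 (unadjusted p = 0.030) and in run 2 it was 0.039. The raw counts of Cd3g were low, between 40 and 185. With values under 87 raised to that floor, as 4 of these 9 are, its log2 fold change was −0.05. The T cell list had 4 tested genes of 27 on the panel, 3 of them below 0, with a median of −0.08.

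The B cell list had 5 tested genes of 18, of which 4 were above 0 and 0 had an unadjusted p under 0.05, with a median of 0.23. Its members were uneven between libraries. Cd79b, a signaling chain of the B cell receptor, ranged from 209 to 480 in HDE + NNK and from 203 to 346 in HDE only, a log2 fold change of 0.29 ± 0.26. Cxcl13, the chemokine that gathers B cells into follicles, ranged from 95.8 to 307 and from 67.0 to 254, with 0.40 ± 0.40. For both genes HDE + NNK run 1 lanes 8 and 9 held the highest values. Only 1 of 18 genes of NK and cytotoxic cells and 3 of 10 of neutrophils were bright enough to test, so these cells are hardly covered.

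Chemokine genes were measured for 12 of 35 ligands, 6 of them above 0 and 6 below, with a median of 0.01. Cxcl16, a membrane-bound chemokine of macrophages and epithelium that draws Cxcr6-bearing T cells, had 691, 659, 839, 502 and 803 normalized counts in HDE + NNK and 732, 1014, 1044 and 744 in HDE only. The groups overlapped, with 2 HDE only libraries above all HDE + NNK libraries. Its log2 fold change was −0.34 ± 0.16 (edgeR unadjusted p = 0.044), and within run 1 it was −0.37 (unadjusted p = 0.072). Ccl5, which attracts T cells, had 0.52 ± 0.39, and Ccl17, which attracts Ccr4-bearing T cells, had 0.51 ± 0.32. Ccl17 ranged from 89.4 to 269 in HDE + NNK and from 106 to 137 in HDE only, so the NNK group spanned both sides of the other.

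Complement genes were tested for 19 of 30, with 13 above 0, 6 below and a median of 0.08. C1ra, a protease of the C1 complex that starts the classical pathway, had 471, 417, 414, 447 and 283 normalized counts in HDE + NNK and 379, 351, 310 and 291 in HDE only. Of the HDE + NNK libraries 4 exceeded all HDE only libraries, and the other, of run 2, lay below all of them. The log2 fold change was 0.29 ± 0.14 (edgeR unadjusted p = 0.046). In run 2 the difference was −0.08, against 0.26 within run 1 (unadjusted p = 0.085). C7, a component of the membrane attack complex, had 525.9, 445, 491, 827 and 618 normalized counts in HDE + NNK and 638, 947, 752 and 662 in HDE only. Its log2 fold change was −0.37 ± 0.20 (edgeR unadjusted p = 0.083). The library HDE + NNK run 1 lane 11 held the highest value of its group. Without it and HDE only run 2 lane 12, the pair that stood apart on component 2, C7 had −0.58 (edgeR unadjusted p = 0.010). That exclusion was added after seeing the data and gave the largest size of 29 alternatives, which ran from −0.58 to −0.078. With the run as a term C7 had −0.41 (edgeR unadjusted p = 0.057). With sex as a term on the floored counts it had −0.23 (edgeR unadjusted p = 0.16). The central component C3 had 2297 ± 376 and 2334 ± 133 normalized counts.

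In structural cells the gene with the smallest p was Itga6, the integrin alpha 6 chain, which anchors epithelium and endothelium to laminin. It had 374, 299, 307, 491 and 282 normalized counts in HDE + NNK and 278, 261, 210 and 283 in HDE only. Of the HDE + NNK libraries 4 exceeded all HDE only libraries, and the other was just below the highest of them. The log2 fold change was 0.45 ± 0.18 (edgeR unadjusted p = 0.018), within run 1 it was 0.44 (unadjusted p = 0.046) and in run 2 it was 0.21. Of 9 tested integrin genes 4 were above 0 and 5 below, with a median of −0.0020. Itgb1, the beta 1 chain with which integrin alpha 6 pairs, had 2694 ± 524 and 3105 ± 232 normalized counts, a log2 fold change of −0.21 ± 0.17.

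The endothelial list had 17 tested genes of 18, with 8 above 0, 9 below and a median of −0.02. For all 17 the 95% interval lay within 2-fold. Icam2 had 0.18 ± 0.17 and Vcam1, the adhesion molecule for leukocytes, 0.22 ± 0.18. Of 8 tested epithelial genes 4 were above 0, and Ceacam1 had 0.15 ± 0.17. Matrix, mesenchyme and TGF-beta genes were above 0 for 13 of 16, with a median of 0.05 and 0 at an unadjusted p under 0.05. Col1a1, the chain of type I collagen, ranged from 125 to 430 in HDE + NNK and from 124 to 278 in HDE only, a log2 fold change of 0.48 ± 0.28. Its lowest 3 values were those of run 2, whichever the group. Tgfb2 had −0.25 ± 0.21.

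Interferon response genes were tested for 22 of 35, with 17 above 0, 5 below, a median of 0.05 and 0 at an unadjusted p under 0.05. Irf2, which restrains interferon-induced transcription, had 446, 347, 349, 497 and 331 normalized counts in HDE + NNK and 365, 377, 284 and 301 in HDE only. The groups overlapped, and the log2 fold change was 0.25 ± 0.13 (edgeR unadjusted p = 0.064). Ifitm2, a membrane protein that blocks virus entry, had 0.21 ± 0.15. MHC class I presentation had 9 of 12 tested genes above 0, with a median of 0.12. Psmb9, a subunit of the immunoproteasome, had 0.36 ± 0.25 and H2-M3, a class I molecule that presents formylated bacterial peptides, 0.40 ± 0.28. For Psmb9 and Ifitm2 the highest value was that of HDE + NNK run 1 lane 11.

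Genes tied to tumor growth and to the response to DNA damage gave no call either. Of 13 tested genes of DNA damage, cell cycle and apoptosis 11 were above 0, with a median of 0.08 and 0 at an unadjusted p under 0.05. Trp53, the p53 gene, had a log2 fold change of 0.25 ± 0.39. It ranged from 98.3 to 281 in HDE + NNK and from 50.2 to 214 in HDE only, and the 3 lowest values were those of run 2. Within run 1 its log2 fold change was −0.35. Abcb1a, a drug efflux pump, had −0.24 ± 0.18 and Tnfsf10, the death ligand TRAIL, −0.18 ± 0.17. All 8 tested immediate-early and stress transcription factor genes had a log2 fold change above 0, with a median of 0.12 and 0 at an unadjusted p under 0.05. With the run as a term 4 of the 8 lay above 0 and the median was −0.0012, and in run 1 alone 2 did and it was −0.087. Among these genes were Myc (0.38 ± 0.35) and Dusp6, a phosphatase that ERK signaling induces (0.13 ± 0.21). The level of this list split by run, between −0.18 and 0.65 in run 1 and between −0.63 and −0.48 in run 2 (log2 deviation from the mean of the 9 libraries).

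Of 14 tested MAP kinase and PI3K-Akt genes 11 were above 0, with a median of 0.05. Map2k2, the ERK kinase MEK2, had a log2 fold change of 0.12 ± 0.11. Vessel growth and hypoxia genes were above 0 for 5 of 13, with a median of −0.05. Hif1a, the oxygen-sensing transcription factor, had 944 ± 63 and 1064 ± 132 normalized counts and a log2 fold change of −0.17 ± 0.10, and Thbs1, an inhibitor of vessel growth, had 0.44 ± 0.41. Checkpoint genes were above 0 for 3 of 5. Cd274, the gene of PD-L1, ranged from 389 to 521 in HDE + NNK and from 248 to 578 in HDE only, a log2 fold change of −0.15 ± 0.22. Its difference turned between the runs, from −0.39 within run 1 (unadjusted p = 0.0076) to 0.46 in run 2, and with the run as a term it was −0.18 (unadjusted p = 0.44). Cd47, the signal that keeps macrophages from engulfing a cell, had −0.18 ± 0.11. Tnfrsf14, a receptor that engages the inhibitory molecule BTLA, had 0.41 ± 0.32. Its 301 normalized counts in HDE + NNK run 1 lane 11 were the highest, and the other 4 libraries of that group lay between 103 and 130.

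Lysosome and cathepsin genes were below 0 for 9 of 10, with a median of −0.11 and 0 at an unadjusted p under 0.05. The membrane proteins Lamp1 and Lamp2 had −0.13 ± 0.10 and −0.18 ± 0.13. Among genes of mast cells, eosinophils and type 2 signals, with 3 of 5 above 0, the mast cell receptor Kit had −0.26 ± 0.21. Kit was dim, with raw counts between 40 and 96. In the TNF superfamily 2 of 6 were above 0. The lists of dendritic cells (3 of 4 above 0) and of chemokine receptors (1 of 3) were too thinly measured to describe further. Over all 28 lists the medians ran from −0.12 to 0.23, with 19 above 0 (10 with the run as a term and 4 in run 1 alone), and 0 genes of any list passed at an adjusted p under 0.05.

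**Figure D4:**
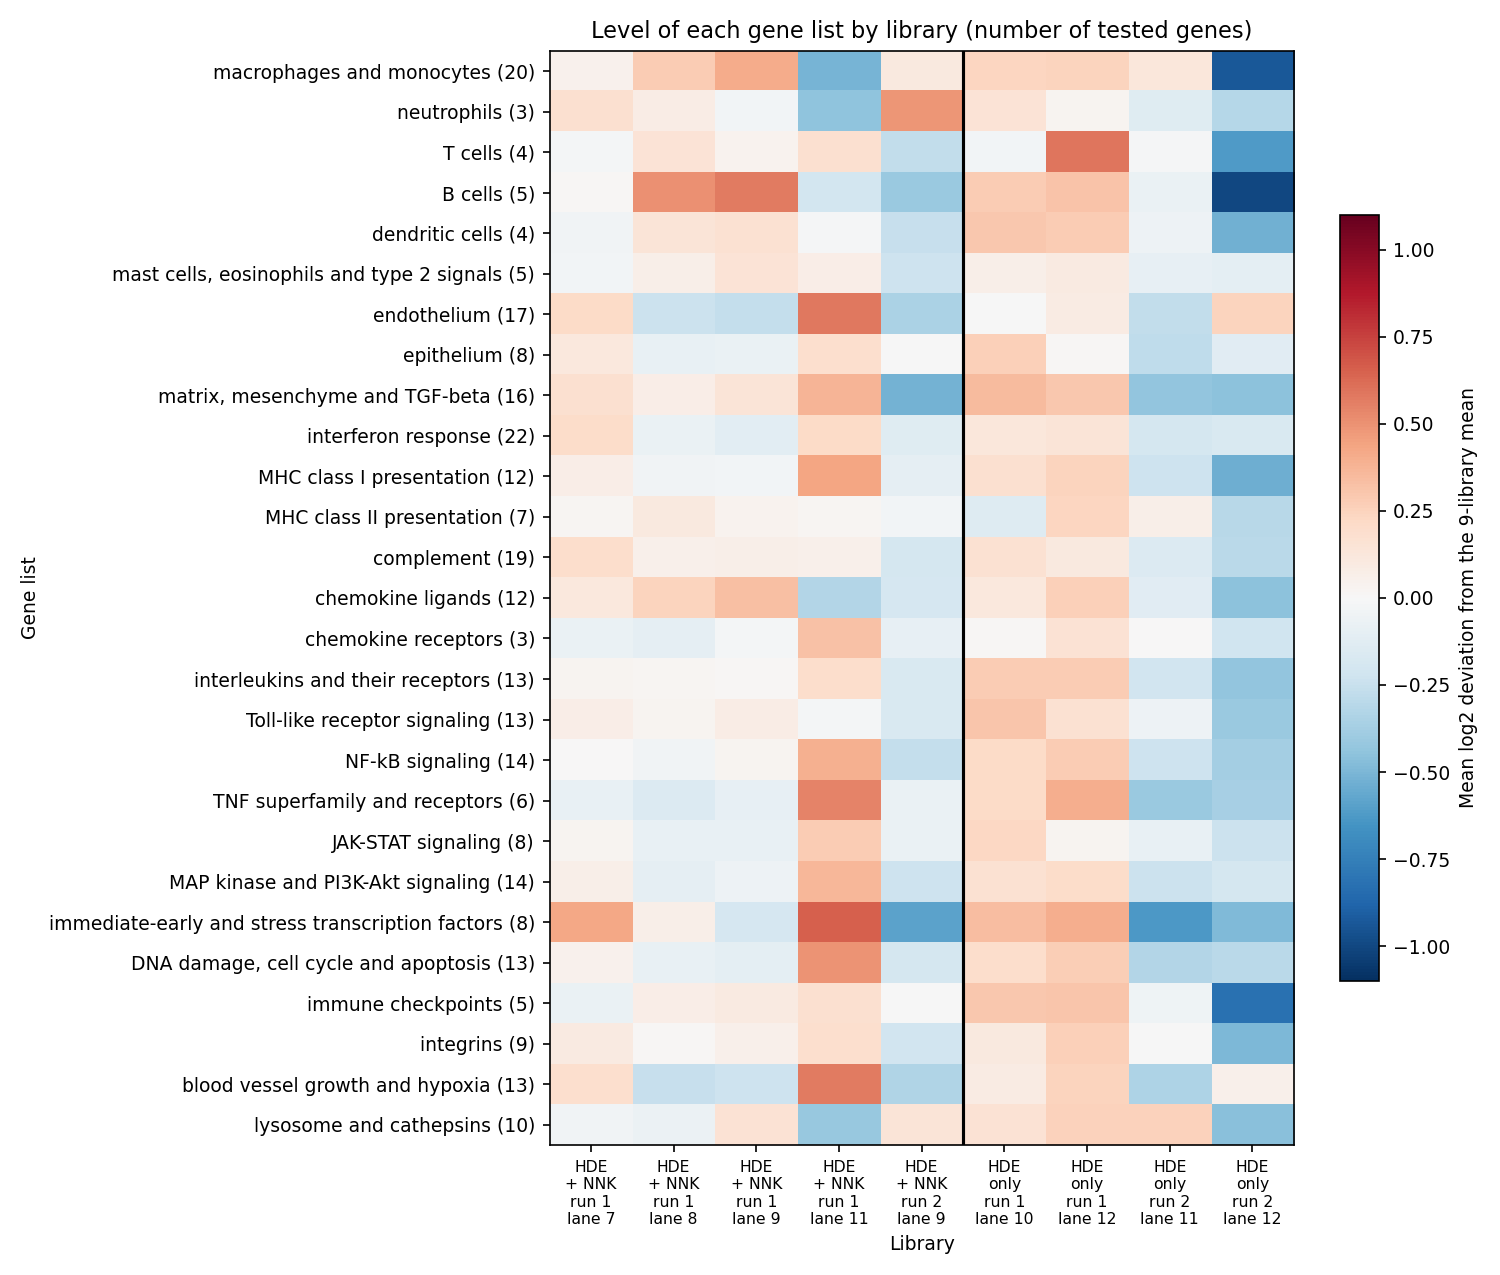
Level of each gene list with at least 3 tested genes (rows, number of tested genes in parentheses) in each library (columns), as the mean log2 deviation of its genes from the mean of the 9 libraries, red above and blue below. The black line divides HDE + NNK from HDE only. Macrophage genes are at −0.51 in HDE + NNK run 1 lane 11 and at −0.93 in HDE only run 2 lane 12, 1 library of each group.

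Libraries of the same group varied widely. The median SD of log2 normalized counts within the HDE groups was 0.34, against 0.21 within the saline groups. It was larger in HDE for 316 of 388 genes. This SD is of single libraries with both runs included, and is not on a par with the 0.097, which is of differences between group means. For run 2 against run 1 in HDE-exposed libraries the median absolute log2 fold change was 0.33. The 5 genes with the largest SD within the HDE groups were Fos (1.09), Trem2 (1.08), Chil3 (0.97), Thbs1 (0.91) and Trp53 (0.88). Fos, an immediate-early gene, had 637, 427, 219, 660 and 135 normalized counts in HDE + NNK and 567, 605, 119 and 167 in HDE only, with the 3 lowest values in run 2. Macrophage genes as a list lay between −0.51 and 0.41 in HDE + NNK and between −0.93 and 0.25 in HDE only. The endothelial list was highest in HDE + NNK run 1 lane 11 (0.58) and in HDE only run 2 lane 12 (0.24), where the macrophage list was lowest. Whether these lungs held fewer macrophages was not tested.

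The same carcinogen was given to saline-exposed mice, 6 with NNK and 6 without, which allows the NNK difference to be set beside that of the HDE arm without shared samples. In saline-exposed lungs 0 of 388 genes (0%) passed at an adjusted p under 0.05, and 4 (1.03%) had an unadjusted p under 0.05, Tap1, Psmb9, H2-D1 and Egr1. Of these, Tap1 and H2-D1 belong to MHC class I presentation with Psmb9, and the 3 had log2 fold changes of 0.47, 0.28 and 0.48 in saline-exposed lungs, in the order Tap1, H2-D1 and Psmb9. In HDE-exposed lungs they had 0.28, 0.03 and 0.36. Across the 388 genes, which are not independent, the NNK log2 fold changes of both arms correlated with r = 0.29, and 244 had the same sign. With the run as a term r was 0.10 and 202 had the same sign. The runs were unevenly spread in this arm too, with 4 of 6 saline + NNK and 2 of 6 saline only libraries in run 1, as was sex, with 3 females of 6 and 5 of 6.

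The difference of the NNK effect between the arms was tested as an interaction. It passed at an adjusted p under 0.05 for 0 genes (0%), and 4 (1.03%) had an unadjusted p under 0.05. Itga6 had 0.45 in HDE-exposed and −0.05 in saline-exposed lungs, a difference of 0.49 ± 0.23 (SE, edgeR unadjusted p = 0.042). H2-Ab1 had −0.71 and 0.05, a difference of −0.77 ± 0.36 (unadjusted p = 0.043). Herc6, an interferon-induced ligase of ISG15 in the mouse, had −0.23 and 0.25, a difference of −0.48 ± 0.20 (unadjusted p = 0.023). H2-T23, the class I molecule Qa-1, had −0.28 and 0.43, a difference of −0.71 ± 0.32 (unadjusted p = 0.040). For Marco the difference was 0.86 ± 0.44 (unadjusted p = 0.061). Within run 1 alone the interaction passed for 1 gene, Cd274.

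**Figure D5:**
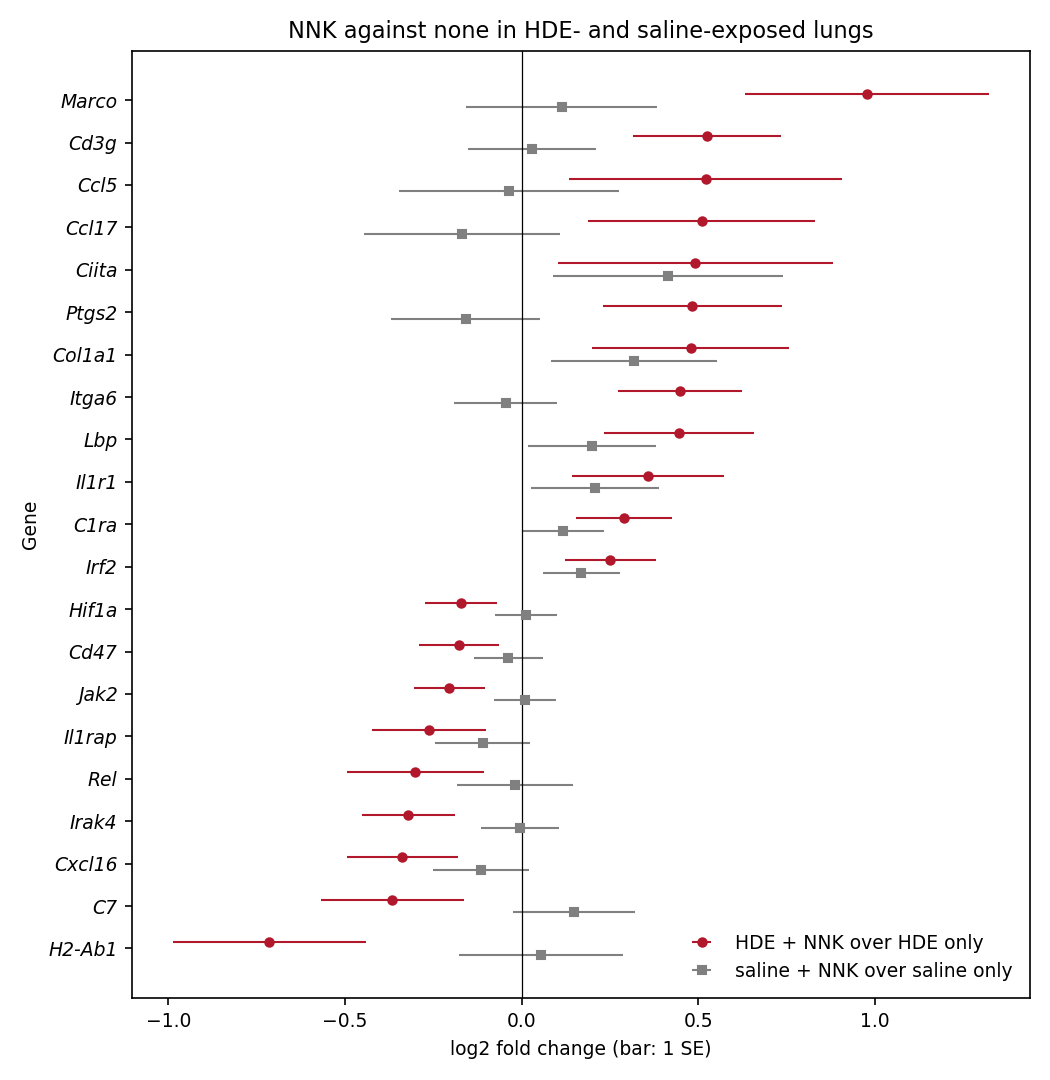
Log2 fold change with NNK (x axis, bars 1 SE) of 21 named genes (y axis) in HDE-exposed lungs (red) and in saline-exposed lungs (grey). Marco is highest at 0.98 in HDE-exposed lungs against 0.11 in saline-exposed lungs, and H2-Ab1 lowest at −0.71 against 0.05. Marco falls to 0.15 in HDE-exposed lungs on the floored counts, where Ciita is at −0.14.

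Genes under the count minimum were not compared. Of these 378, 106 were at or under background (the mean of the negative controls plus 2 SD) in all 9 HDE-exposed libraries, 55 were above it in all 9, and 13 had a mean of at least 87 over the 9 but not over the 21. With the minimum lowered to a mean of 20, or removed, 0 genes passed at an adjusted p under 0.05 and 9 had an unadjusted p under 0.05 either way. Of 59 interleukin and receptor genes 13 were tested, and of 24 TNF superfamily genes 6. The rest were not compared. Replicates are lungs of separate mice, so the p-values measure the spread between mice, lanes and runs together.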

How the data were processed

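For each mouse the authors hybridized 50 ng of lung RNA over 16 h, imaged it with an nCounter Sprint, and deposited counts in 2 tables, raw counts of 784 probes and counts with gene values under 87 raised to 87. The raw table names group, run and lane. The other gives sex and replicate number. Tables were not matched library by library. Members and the 28 gene lists were chosen with earlier results of these data known.

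Libraries were scaled to Eef1g, Oaz1, Rpl19 and Sdha (geometric mean), as in the study's methods, with 1 added before log2 for principal components. Genes averaging 87 raw counts or more were fitted over all 21 libraries by the robust quasi-likelihood method of edgeR 4.0.16 (R 4.3.3) with a mean for each of the 4 groups, and p-values were adjusted over 388 genes (Benjamini-Hochberg). Intervals are 95%. SEs are the log2 fold change over the square root of F. Single values were compared by exact permutation, two-sided. Lists were described by counts and medians, with no test. Alternatives used TMM, DESeq2 1.42.0, limma 3.58.1, other scalings, minimums and terms, and leaving out each library. The mouse gene table held 387 of the tested symbols. The panel comes without a genome build, and coordinates are left out.

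Named were C7, Itga6 and Irf2, the 10 genes of each direction with the smallest p, the 5 highest and 5 lowest fold changes, up to 2 genes per list with the smallest p and 2 with the highest level, and the 5 with the largest spread, apart from some genes that are not reported here. Further genes (Herc6, H2-T23, Tap1, H2-D1, Egr1, those leading the principal components and those used to check the tissue) were named after their values were seen. The fit was tested on simulated counts.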

Additional observations from a re-analysis of the deposited data

Results flagged for a closer look

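Within groups, 154 sets of values were examined for a library far from the rest, and 10 (6.49%) were flagged, where chance flags about 5%. In HDE only, run 2 lane 12 lay far below the other 3 libraries on principal component 2 (−8.13, next 1.48), in the macrophage and monocyte list (−0.93, next 0.12) and in the lysosome and cathepsin list (−0.46, next 0.16, log2 deviation). In HDE + NNK, run 1 lane 11 lay far above the other 4 in normalized counts of Ifitm2 (2723, next 1709), Psmb9 (499.6, next 344) and Tnfrsf14 (301, next 130), in the TNF superfamily list (0.55, next −0.07) and in the chemokine receptor list (0.32, next −0.02). HDE + NNK run 2 lane 9 was the highest of its group for Cd274 (521, next 411). HDE + NNK run 1 lane 7 was the lowest for Irak4 (95.5, next 114). No difference of the NNK effect between HDE- and saline-exposed lungs passed the interaction test over all libraries.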

How the results depend on the processing

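The count of 0 genes at an adjusted p under 0.05 held under all 29 alternatives, of which 3 were added after seeing the data, but precision is limited by 9 libraries and by dim genes. The 8 genes at an unadjusted p under 0.05 became 3 with positive controls, 13 with background subtraction, 4 with 87 counts required in each HDE-exposed library, 15 with DESeq2, 2 with the HDE-exposed libraries alone, 15 with run 1 alone and 18 with the floor of 87. They became 18 without the pair that stood apart, and leaving out 1 library gave 2 to 16 (5 without HDE + NNK run 1 lane 7 or 8, 14 without its lane 11, 16 without run 2 lane 9, 15 without HDE only run 1 lane 10 and 2 without run 2 lane 11). The interaction called 1 gene with run 1 alone, Cd274 (0 otherwise).

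Whether replicate numbers pair the samples was not settled. Same-numbered samples correlated with −0.21, −0.07, 0.54 and 0.45 for numbers 1 to 4. Only numbers 3 and 4 matched their own number best. With the replicate block, on the floored counts of samples numbered 1 to 4, 0 genes passed and 10 had an unadjusted p under 0.05, against 5 without the block, and Ciita had −0.057.

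Of 50 genes followed through the alternatives, among them each gene whose fold change is printed, 22 kept their direction, and of all 93 tested genes named by the rule 25 did. Positive control scaling turned H2-T23 (0.030), Herc6 (0.15), Abcb1a (0.13), Cd274 (0.073), Cd47 (0.12), Cxcl16 (0.0036), Hif1a (0.14), Il1rap (0.10), Itgb1 (0.093), Jak2 (0.14), Kit (0.13), Lamp1 (0.19), Lamp2 (0.12), Tgfb2 (0.080) and Tnfsf10 (0.17). The floor, which raises dim genes of shallow libraries, turned Ccl5 (−0.057, −0.028 with sex, −0.023 in samples 1 to 4), Cd3g (−0.049, −0.047 with sex), Ciita (−0.14, −0.045, −0.13) and Trp53 (−0.0096). Run 1 alone turned H2-D1 (−0.13; −0.028 with the run as a term), Tap1 (−0.044), Trp53 (−0.35), Ceacam1 (−0.041), Myc (−0.027) and Tnfrsf14 (−0.038). Without the pair that stood apart H2-D1 had −0.17, Tap1 −0.0042, Trp53 −0.33, Dusp6 −0.051, Ikbkb −0.012, Stat6 −0.036 and Tnfrsf14 −0.19, and without the pair with the lowest totals H2-D1 had −0.090 and Stat6 −0.022. Leaving out 1 library, Dusp6 ran from −0.013 to 0.27, H2-D1 from −0.12 to 0.10, H2-T23 from −0.46 to 0.028, Trp53 from −0.075 to 0.64 and Ifitm2 from −0.0053 to 0.27. The interaction turned for Lbp (−0.019, without the pair with the lowest totals) and Marco (−0.10, with sex). The causes were not tested.

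The difference on component 1 was −0.093 with TMM, −0.41 with all housekeeping genes, −0.92 with run 1 alone and −1.53 without the pair that stood apart. On component 2 it was −0.58 with positive controls, −0.28 with background subtraction and −4.24 with run 1 alone (exact permutation p = 0.067, the smallest possible), and −0.77 to 2.51 on leaving out 1 library. The scaling factor difference ran from 0.18 to 0.82 over 11 alternatives, and from 0.18 to 0.72 on leaving out 1 library. With 87 counts required in each HDE-exposed library, no T cell or NK cell gene was left to give a list median.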
